A study of Mus musculus with 12 samples.

Results

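The genes of serine synthesis (Phgdh, Psat1, Psph), of the mitochondrial use of serine (Shmt2, Mthfd2), of asparagine synthesis (Asns) and of the ATF4 stress response (Atf4, Atf5, Ddit3, Trib3) were followed across 12 mouse liver libraries. They are 10 of the 25540 genes in the count table and were found there by symbol. They were chosen by symbol with no threshold, but with their levels and fold changes in these libraries already known, so the changes below in the comparisons of STAT3 loads with their controls describe the genes and are not independent evidence. Livers came from BALB/c mice injected with exosomes called iExos in the labels, and polyadenylated RNA was sequenced. The groups of 3 libraries are siSTAT3 iExos, set against siCntrl iExos, and mASO STAT3 iExos, set against mASO Scrbl iExos. All 4 groups received iExos, and an uninjected liver was not analysed here. The series' title places the work in liver fibrosis and gives STAT3 as the target, and the labels used here do not say whether or how these livers were injured, nor the age of the mice, nor whether libraries of a group came from separate animals. The p-values therefore measure the spread between these libraries, which may be technical.

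Serine is made from a glycolytic intermediate in a chain of 3 enzymes: PHGDH oxidises 3-phosphoglycerate, PSAT1 transaminates the product and PSPH removes the phosphate. Serine then gives its side-chain carbon to folate, in mitochondria through SHMT2 and MTHFD2 and in the cytosol through SHMT1 and MTHFD1. ATF4 is the transcription factor of the integrated stress response, in which kinases phosphorylate the initiation factor eIF2α. It is controlled largely at the level of translation, so its mRNA need not follow its protein. In many mammalian cells ATF4 raises the genes of serine and asparagine synthesis, of amino acid transport and of tRNA charging, together with the stress factors ATF5, DDIT3 (CHOP) and TRIB3.

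Promoter windows are shown first because ATF4 binds with C/EBP proteins to a known element. The window of each gene runs from 250 bases before the RefSeq start to 50 after it, 300 bases in all, in RefSeq on GRCm38.p6, and is written 5′ to 3′ on the gene's strand. All 10 genes matched, with 12 windows. The element was searched as TGATGNAA on both strands, and capitals mark the match. Asns (chr6:7693160-7693459, minus strand) and Trib3 (chr2:152344011-152344310, minus strand, match on the other strand) held it. Phgdh (chr3:98339920-98340219, minus strand) is shown as a gene without these letters that had a large difference below.
Asns: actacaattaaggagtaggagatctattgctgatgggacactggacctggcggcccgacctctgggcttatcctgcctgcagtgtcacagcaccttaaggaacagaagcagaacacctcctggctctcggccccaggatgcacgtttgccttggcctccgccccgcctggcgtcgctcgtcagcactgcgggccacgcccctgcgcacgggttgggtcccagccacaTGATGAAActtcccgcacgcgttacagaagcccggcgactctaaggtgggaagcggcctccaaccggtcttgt
Trib3: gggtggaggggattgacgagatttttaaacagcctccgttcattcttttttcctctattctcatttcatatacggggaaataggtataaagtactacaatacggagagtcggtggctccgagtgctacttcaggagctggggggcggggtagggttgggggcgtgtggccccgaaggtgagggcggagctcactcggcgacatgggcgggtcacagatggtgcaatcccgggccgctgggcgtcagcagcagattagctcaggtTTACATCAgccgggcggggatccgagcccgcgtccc
Phgdh: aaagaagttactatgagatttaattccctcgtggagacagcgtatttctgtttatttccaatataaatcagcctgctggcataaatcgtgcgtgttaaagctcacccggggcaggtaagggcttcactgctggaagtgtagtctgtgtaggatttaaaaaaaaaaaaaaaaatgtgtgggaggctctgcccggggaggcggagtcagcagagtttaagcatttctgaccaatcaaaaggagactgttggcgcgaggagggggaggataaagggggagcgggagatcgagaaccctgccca
The match was in 2 of the 12 windows (16.7%) and in 1304 of all 32851 windows of the table (3.97%). It was in 9 of 29 windows of other ATF4 target genes (31%) and in 5 of 13 windows of cytosolic aminoacyl-tRNA synthetases (38.5%). It was in 0 of 13 windows of the other serine and glycine genes, 0 of 14 of the stress response kinases and regulators, 0 of 11 of the other ER stress genes, and 1 of 5 of the asparagine and glutamine genes (20%). Not every listed gene had a window: 23 of 27 ATF4 target genes, 13 of 20 synthetases, 13 of 17 serine and glycine genes, 12 of 15 regulators, 11 of 14 ER stress genes, and 5 of 8 asparagine and glutamine genes did. The cyclic AMP response element TGACGTCA, which shares the letters TGA with the first motif, was searched in the same way and was in none of the 12 windows and in 588 of all windows (1.79%). Of the pair with the match, Asns was lower in both STAT3 groups and Trib3 was not called in either. A match describes the letters of the window only.

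Libraries held 39844158 to 67791159 counts. Levels are given as counts per 1e6 counts (CPM) on library totals scaled by TMM, which sets the bulk of genes equal between libraries. The scaling factors were 0.804 to 0.901 in the 6 STAT3-labelled libraries and 1.11 to 1.27 in the 6 controls. A gene was called at a Benjamini-Hochberg adjusted p under 0.05 over 15720 genes in edgeR's quasi-likelihood test, and all 10 genes passed the filter on low counts. Fold changes are log2 ± SE, of the STAT3 load over its control. Stat3, the named target, had 91.5, 116 and 122 CPM in siSTAT3 and 106, 121 and 111 CPM in siCntrl. It had 105, 88.2 and 115 CPM in mASO STAT3, against 106, 90.0 and 101 CPM in mASO Scrbl. The groups overlapped in both comparisons, with changes of -0.03 ± 0.14 (adjusted p = 0.868) and 0.05 ± 0.14 (adjusted p = 0.792), so the mRNA gave no check of the labels. Library totals alone gave called values of -0.54 and -0.53 (adjusted p = 0.00446 and 0.00413), which lie close to the shift of all genes under that scaling.

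In siSTAT3 livers 1 of the 10 genes was higher (Shmt2) and 6 were lower (Psat1, Phgdh, Asns, Mthfd2, Psph and Atf5) than in siCntrl livers. Over all genes 45.7% were called, 22.4% higher and 23.4% lower. In mASO STAT3 livers the same 6 were lower and 2 were higher (Shmt2 and Atf4) than in mASO Scrbl livers, where 43.8% of all genes were called, 22.5% lower and 21.3% higher. Being lower in both comparisons was shared with 16.9% of all genes, and being higher in both with 17.4%. The levels of the called genes did not overlap between the groups, which held for 27.5% of all genes as lower and 25.5% as higher in siSTAT3, and for 29.6% and 27.2% in mASO STAT3. With scaling by library totals in place of TMM, the share of called genes that were higher moved to 18.6% from 48.9% in the first comparison and to 16.1% from 48.6% in the second. That scaling also moved the median of all genes to -0.53 from -0.04 and to -0.63 from -0.05. The median change of the 10 genes was -1.50 in siSTAT3 and -1.16 in mASO STAT3 livers.

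**Figure D1:**
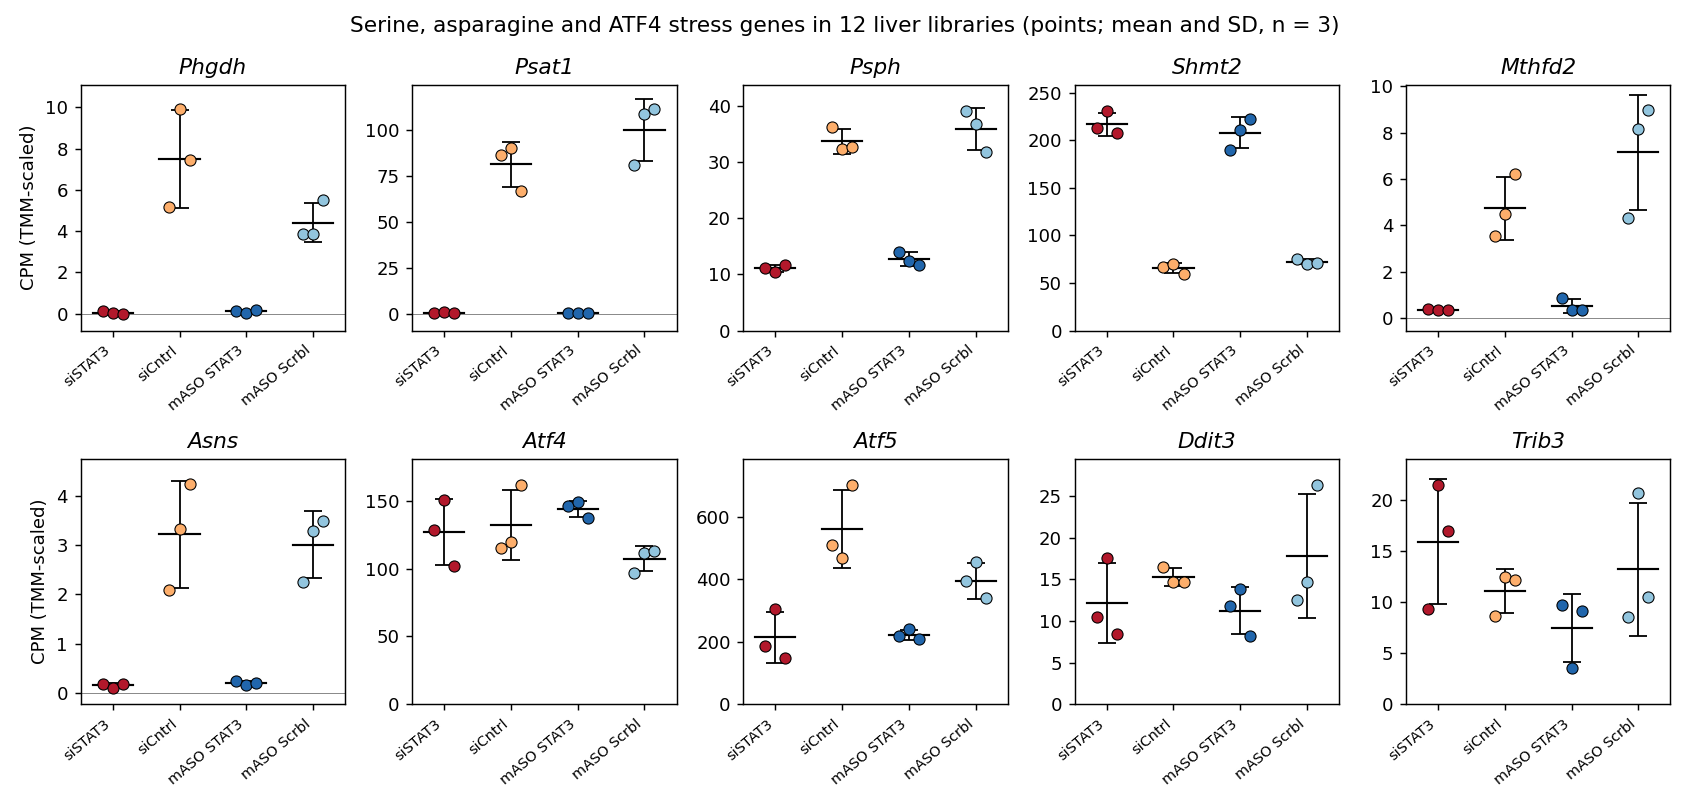
Level of each gene in CPM (TMM-scaled) in each of the 12 libraries, one panel per gene, with points for libraries and bars for the mean and SD (n = 3). Phgdh, Psat1, Psph, Mthfd2 and Asns lie lower in all 6 STAT3-labelled libraries and Shmt2 lies higher, while groups overlap for Ddit3 and Trib3.

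Of the serine synthesis enzymes, Psat1 had the largest fall in mASO STAT3. In siSTAT3 its fall could not be told from that of Phgdh (95% intervals -7.44 to -6.36 and -8.14 to -5.49). Psat1 had 0.493, 0.977 and 0.584 CPM in siSTAT3 libraries, against 86.6, 90.0 and 67.1 CPM in siCntrl libraries. In mASO STAT3 libraries it had 0.640, 0.684 and 0.584 CPM, against 80.8, 109 and 111 CPM in mASO Scrbl libraries. Every STAT3-labelled library stood far below every control. The change was -6.90 ± 0.25 in siSTAT3 (119-fold lower, adjusted p = 1.07e-09) and -7.29 ± 0.25 in mASO STAT3 (157-fold lower, adjusted p = 8.12e-10). In the order of 15720 fold changes from the lowest up, it was number 36 in the first comparison and number 25 in the second. The counts behind these values were 19 to 38 per siSTAT3 library and 26 to 36 per mASO STAT3 library, against 4671 to 6499 in siCntrl and 6656 to 8972 in mASO Scrbl. In a whole liver, fewer cells that make a transcript and less of it per cell cannot be told apart.

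Phgdh, the first enzyme of the chain, was nearly undetected in STAT3-labelled livers. It had 0.144, 0.0257 and 0 CPM in siSTAT3 libraries (7, 1 and 0 counts), against 5.17, 9.89 and 7.44 CPM in siCntrl libraries (388, 689 and 518 counts). The library at 0 could have missed up to 0.0922 CPM, the level of 3 counts. In mASO STAT3 libraries Phgdh had 0.123, 0.0380 and 0.181 CPM (5, 2 and 9 counts), against 3.87, 3.85 and 5.50 CPM in mASO Scrbl libraries (319, 318 and 444 counts). No STAT3-labelled library reached a control. The summed counts gave a level 112-fold lower in siSTAT3 livers (95% interval 56.6 to 259) and 39.3-fold lower in mASO STAT3 livers (24.1 to 69.0), where the intervals cover counting error only. The fitted changes were -6.82 ± 0.62 (adjusted p = 1.79e-06) and -5.26 ± 0.56 (adjusted p = 6.85e-06). The first became -8.88 ± 0.76 without siSTAT3 library 1, which held 7 of the 8 counts of its group.

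Psph, the last enzyme of the chain, fell to a much smaller degree. It had 11.1, 10.5 and 11.7 CPM in siSTAT3 libraries, against 36.2, 32.3 and 32.7 CPM in siCntrl libraries. It had 14.1, 12.5 and 11.8 CPM in mASO STAT3 libraries, against 39.1, 36.9 and 31.8 CPM in mASO Scrbl libraries. The spread within groups was small beside the gap between them, and the changes were -1.60 ± 0.13 (3.04-fold lower, adjusted p = 5.98e-07) and -1.49 ± 0.13 (2.82-fold lower, adjusted p = 1.09e-06). The 3 enzymes of the chain thus all fell in both STAT3 groups, Psph by the least.

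The mitochondrial enzymes that use serine went in opposite directions. Shmt2, which splits serine into glycine and a folate-bound carbon, had 213, 230.5 and 207 CPM in siSTAT3 libraries, against 67.2, 69.8 and 59.5 CPM in siCntrl libraries. It had 190.2, 211 and 222 CPM in mASO STAT3 libraries, against 75.0, 70.2 and 71.2 CPM in mASO Scrbl libraries. Each STAT3-labelled library stood above each control, with changes of 1.73 ± 0.12 (3.31-fold higher, adjusted p = 1.84e-07) and 1.53 ± 0.12 (2.88-fold higher, adjusted p = 4.39e-07).

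Mthfd2, which oxidises the folate-bound carbon in mitochondria, had 0.370, 0.334 and 0.338 CPM in siSTAT3 libraries, against 3.52, 4.48 and 6.21 CPM in siCntrl libraries. It had 0.861, 0.342 and 0.342 CPM in mASO STAT3 libraries, against 4.31, 8.14 and 8.98 CPM in mASO Scrbl libraries. The highest STAT3-labelled value, that of mASO STAT3 library 1, was still below the lowest control. The changes were -3.76 ± 0.42 (13.5-fold lower, adjusted p = 1.20e-05) and -3.81 ± 0.41 (14.0-fold lower, adjusted p = 7.59e-06). With scaling by library totals the second was -4.40 ± 0.42.

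The rest of the serine and glycine list (17 genes, all measured) had 8 genes higher and 3 lower in each comparison. Medians were 0.22 in siSTAT3 and 0.44 in mASO STAT3 livers. Among all genes, 22.4% were higher and 23.4% lower in siSTAT3, and 21.3% and 22.5% in mASO STAT3. Under library totals 5 genes of the list were higher and 7 lower in siSTAT3, and 6 and 6 in mASO STAT3. Of its folate enzymes of the cytosol, Shmt1, Mthfd1 and Aldh1l1 are given here, picked after their values were seen. Shmt1, the cytosolic counterpart of Shmt2, averaged 281 ± 12.3 CPM in siSTAT3 and 99.8 ± 18.3 CPM in siCntrl libraries (SD, n = 3 each), a change of 1.50 ± 0.16 (adjusted p = 7.96e-06), and its change in mASO STAT3 was 1.78 ± 0.16 (adjusted p = 1.86e-06). Mthfd1, the cytosolic enzyme that interconverts folate-bound carbons, rose by 1.35 ± 0.13 in siSTAT3 and 1.53 ± 0.13 in mASO STAT3 (adjusted p = 3.60e-06 and 1.26e-06). Aldh1l1, which oxidises the carbon to CO2 in the cytosol, averaged 1614 ± 67.7 CPM in siSTAT3 and 160.1 ± 41.6 CPM in siCntrl libraries, and rose by 3.33 ± 0.23 and 3.62 ± 0.23 (adjusted p = 1.81e-07 and 9.11e-08). Srr, serine racemase, rose by 1.53 ± 0.18 and 1.71 ± 0.18 (adjusted p = 1.39e-05 and 5.23e-06).

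Of the mitochondrial enzymes of the same list, Aldh1l2, Mthfd1l, Mthfd2l and the glycine cleavage genes Gcsh and Gldc are given, picked in the same way. Aldh1l2, the mitochondrial relative of Aldh1l1, averaged 0.115 ± 0.0197 CPM in siSTAT3 and 1.67 ± 0.284 CPM in siCntrl libraries, a change of -3.83 ± 0.46 (adjusted p = 1.93e-05). It had 0 to 2 counts in mASO STAT3 libraries and 131 to 193 counts in mASO Scrbl libraries, with a fitted change of -6.37 ± 0.56 (adjusted p = 1.40e-06) that was -7.17 ± 0.71 without mASO STAT3 library 2. Mthfd1l, which releases formate from mitochondria, changed by -0.67 ± 0.15 in siSTAT3 and -0.84 ± 0.15 in mASO STAT3 (adjusted p = 0.00301 and 5.92e-04), and the second was -1.43 ± 0.14 under library totals. Mthfd2l, a relative of Mthfd2, changed by -0.42 ± 0.25 and -0.30 ± 0.25 and was not called (adjusted p = 0.185 and 0.355), though it was called lower under library totals. Gcsh, the carrier protein of the glycine cleavage system, rose by 0.72 ± 0.13 and 0.85 ± 0.13 (adjusted p = 5.39e-04 and 1.50e-04), and under library totals the siSTAT3 call was lost (0.23, adjusted p = 0.0832). Gldc, the decarboxylase of that system, was at 0.68 ± 0.25 in siSTAT3 (adjusted p = 0.0388) and at 0.57 ± 0.25 in mASO STAT3 (adjusted p = 0.0769). It was called in 11 of 20 alternatives in siSTAT3 and 6 of 20 in mASO STAT3, and under library totals it was at 0.20 (adjusted p = 0.475) and -0.0020 (adjusted p = 0.995).

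**Figure D2:**
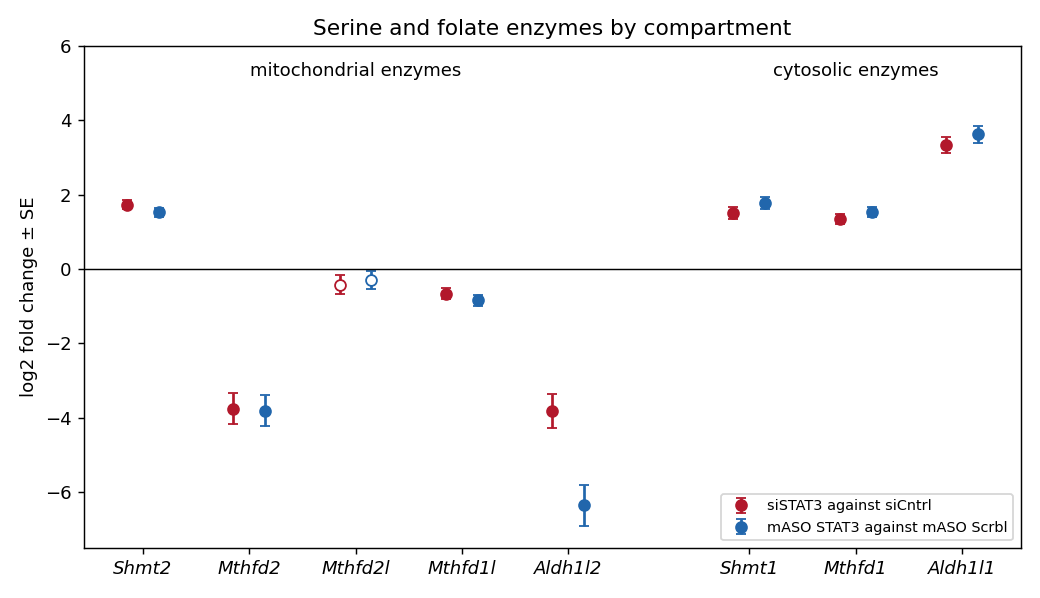
Log2 fold change ± SE (vertical axis) of serine and folate enzymes picked after their values were seen, in siSTAT3 against siCntrl (red) and mASO STAT3 against mASO Scrbl (blue), mitochondrial enzymes on the left and cytosolic ones on the right, filled where called. Shmt2 lies at 1.73 and 1.53 with Shmt1, Mthfd1 and Aldh1l1 above 0, and Mthfd2 lies at -3.76 and -3.81.

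Asns, which makes asparagine from aspartate and glutamine, was low in STAT3-labelled livers. It had 0.185, 0.103 and 0.184 CPM in siSTAT3 libraries (4 to 9 counts), against 2.09, 3.33 and 4.25 CPM in siCntrl libraries (157 to 296 counts). It had 0.246, 0.152 and 0.201 CPM in mASO STAT3 libraries (8 to 10 counts), against 2.25, 3.29 and 3.50 CPM in mASO Scrbl libraries (185 to 283 counts). The groups stood apart in both comparisons, at -4.34 ± 0.41 (20.2-fold lower, adjusted p = 2.72e-06) and -3.91 ± 0.39 (15.1-fold lower, adjusted p = 4.28e-06). Other genes of asparagine and glutamine handling moved mostly the other way: 7 of 8 were higher and 1 lower in each comparison, with medians of 2.18 and 2.32. Among all genes, 22.4% were higher and 23.4% lower in siSTAT3, and 21.3% and 22.5% in mASO STAT3. Aspg, an asparaginase, rose by 2.44 ± 0.28 in siSTAT3 and 2.60 ± 0.28 in mASO STAT3 (adjusted p = 1.75e-05 and 1.11e-05).

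Glul, glutamine synthetase, averaged 586 ± 87.7 CPM in siSTAT3 and 81.8 ± 37.3 CPM in siCntrl libraries (2.84 ± 0.27, adjusted p = 3.71e-06). It averaged 750 ± 155 CPM in mASO STAT3, against 54.5 ± 3.02 CPM in mASO Scrbl libraries (3.78 ± 0.29, adjusted p = 4.77e-07). Gls2, the liver form of glutaminase, rose by 3.23 ± 0.36 and 3.02 ± 0.35 (adjusted p = 1.52e-05 and 2.42e-05). Slc38a3, a glutamine transporter of the plasma membrane, rose by 3.03 ± 0.23 and 2.98 ± 0.23 (adjusted p = 3.53e-07 and 4.21e-07).

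Atf4 mRNA was not called lower in either STAT3 group. It had 128, 150.3 and 102 CPM in siSTAT3 libraries, against 115, 120 and 162 CPM in siCntrl libraries, and the groups overlapped. The change was -0.06 ± 0.16 (95% interval -0.41 to 0.29, adjusted p = 0.786), with the highest value in siCntrl library 3. It had 146, 149 and 138 CPM in mASO STAT3 libraries, against 97.0, 112 and 113 CPM in mASO Scrbl libraries. There each mASO STAT3 library stood above each control, at 0.43 ± 0.16 (adjusted p = 0.0461). That call was at the threshold: leaving out any of the 6 libraries of this comparison ended it (adjusted p = 0.0674 to 0.152), and scaling by library totals turned the value to -0.15 ± 0.16 (adjusted p = 0.432). In siSTAT3, library totals gave a called -0.55 ± 0.16 (adjusted p = 0.0104), and leaving out siCntrl library 3 gave 0.11.

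Atf5, a relative of ATF4 that also has upstream reading frames in its mRNA, was lower in both STAT3 groups. It had 186, 307 and 149 CPM in siSTAT3 libraries, against 512, 469.0 and 702 CPM in siCntrl libraries. It had 218, 239.9 and 209 CPM in mASO STAT3 libraries, against 393, 454 and 339.8 CPM in mASO Scrbl libraries. No library labelled STAT3 reached a control of its own comparison, with changes of -1.39 ± 0.24 (2.62-fold lower, adjusted p = 3.39e-04) and -0.83 ± 0.23 (1.78-fold lower, adjusted p = 0.0107).

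Ddit3 and Trib3, which lie downstream of ATF4, were not called. Ddit3, the pro-apoptotic factor CHOP, had 10.4, 17.6 and 8.48 CPM in siSTAT3 libraries, against 16.5, 14.7 and 14.7 CPM in siCntrl libraries. It had 11.8, 13.8 and 8.19 CPM in mASO STAT3 libraries, against 12.5, 14.7 and 26.3 CPM in mASO Scrbl libraries. The groups overlapped in both comparisons, at -0.33 ± 0.30 (95% interval -0.99 to 0.33, adjusted p = 0.401) and -0.66 ± 0.30 (-1.32 to -0.01, adjusted p = 0.0931), with mASO Scrbl library 3 the highest of all. Ddit3 was called lower under library totals in both (-0.83 and -1.23, adjusted p = 0.0386 and 0.00455) and, in the second, without mASO Scrbl library 1 (-0.87, adjusted p = 0.0444).

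Trib3, a pseudokinase that binds ATF4 and AKT, had 9.35, 21.5 and 17.0 CPM in siSTAT3 libraries, against 8.66, 12.5 and 12.2 CPM in siCntrl libraries. It had 9.75, 3.59 and 9.10 CPM in mASO STAT3 libraries, against 8.52, 20.7 and 10.5 CPM in mASO Scrbl libraries. The groups overlapped and the estimates had opposite signs, 0.52 ± 0.42 (95% interval -0.39 to 1.42, adjusted p = 0.336) and -0.83 ± 0.42 (-1.74 to 0.09, adjusted p = 0.130). The second was called under library totals (-1.44 ± 0.41, adjusted p = 0.00886). Within groups, siSTAT3 library 2 was the highest of its group for Atf4, Atf5, Ddit3 and Trib3, but no other group had 1 library highest for all of these. In mASO STAT3, library 2 was the highest for Atf4, Atf5 and Ddit3 but the lowest for Trib3. In mASO Scrbl, library 3 was the highest for Atf4 and Ddit3 but the lowest for Atf5. In siCntrl, library 3 was the highest for Atf4, Atf5, Asns and Mthfd2 but the lowest for Psat1, Ddit3 and Shmt2.

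**Figure D3:**
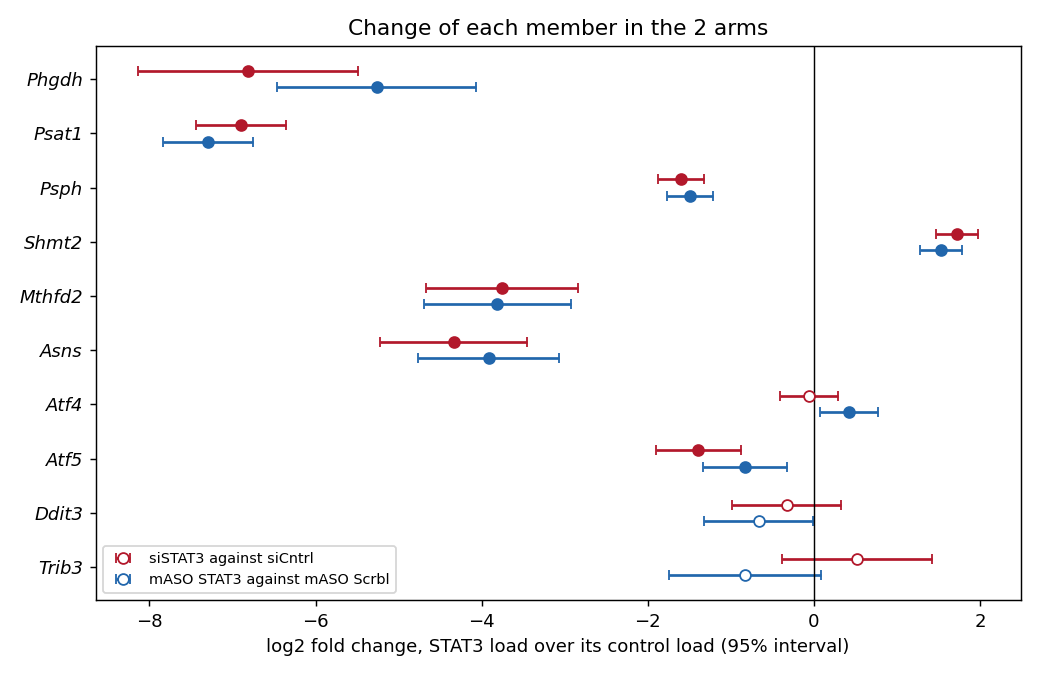
Log2 fold change (horizontal axis) with its 95% interval for each gene in siSTAT3 against siCntrl (red, upper) and mASO STAT3 against mASO Scrbl (blue, lower), filled where called. Psat1 lies at -6.90 and -7.29 and Shmt2 at 1.73 and 1.53, while the intervals of Ddit3 and Trib3 lie close to or across 0.

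The other genes that ATF4 is known to raise did not move as a block. Of 27 measured, 4 were higher and 11 lower in siSTAT3 livers, with a median of -0.39. In mASO STAT3 livers 5 were higher and 10 lower, with a median of -0.36. Among all genes, 22.4% were higher and 23.4% lower in siSTAT3, and 21.3% and 22.5% in mASO STAT3. Under library totals 2 of the 27 were higher and 18 lower in siSTAT3, and 2 were higher and 17 lower in mASO STAT3. The count of higher genes was 2 in siSTAT3 without siCntrl library 2, siSTAT3 library 1 or siSTAT3 library 3, and 3 in mASO STAT3 without mASO STAT3 library 1 or mASO Scrbl library 1. Aldh18a1, an enzyme of proline synthesis, averaged 1.01 ± 0.299 CPM in siSTAT3 and 6.33 ± 0.837 CPM in siCntrl libraries (-2.63 ± 0.26, adjusted p = 3.76e-06), and changed by -2.42 ± 0.25 in mASO STAT3 (adjusted p = 5.95e-06). Pycr1, the last enzyme of that route, changed by -2.13 ± 0.33 and -2.26 ± 0.33 (adjusted p = 1.54e-04 and 9.34e-05), and the second was -2.85 ± 0.33 under library totals.

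Amino acid transporters of the list included Slc7a1, for cationic amino acids, at -2.61 ± 0.38 in siSTAT3 and -2.25 ± 0.37 in mASO STAT3 (adjusted p = 9.98e-05 and 2.75e-04). Slc7a11, the cystine transporter, had 1 to 6 counts in siSTAT3 and 40 to 60 counts in siCntrl libraries (-2.72 ± 0.72, adjusted p = 0.00737). In the other comparison it was at -3.31 ± 0.74 (adjusted p = 0.00259), and at -2.61 ± 0.74 without mASO Scrbl library 3. The other transporters of the list fell less or did not fall. Slc3a2 was lower in both comparisons, Slc7a5 in siSTAT3 alone and Slc6a9 in mASO STAT3 alone. Slc1a4 was not called in siSTAT3 (0.34 ± 0.30, adjusted p = 0.374) and was higher in mASO STAT3 (1.13 ± 0.30, adjusted p = 0.00766). Slc1a5 and Slc38a2 were not called in either. The stress factors Atf3 (-2.06 ± 0.35 and -1.36 ± 0.34, adjusted p = 4.00e-04 and 0.00576) and Nupr1 (-2.30 ± 0.54 and -2.52 ± 0.55, adjusted p = 0.00328 and 0.00210) fell in both. Other regulators of the list did not: Cebpg rose in both (0.37 ± 0.12 and 0.43 ± 0.12, adjusted p = 0.0228 and 0.0115). Cebpb was not called in siSTAT3 (-0.12 ± 0.27, adjusted p = 0.741) and rose in mASO STAT3 (0.80 ± 0.27, adjusted p = 0.0321). Sesn2 and Ppp1r15a were not called in either.

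Cth and Vegfa also went up, and were the only genes of the list called higher under library totals. Cth, which makes cysteine from cystathionine, averaged 379 ± 98.8 CPM in siSTAT3 and 55.5 ± 13.9 CPM in siCntrl libraries (2.77 ± 0.26, adjusted p = 3.11e-06), and 439 ± 86.0 CPM in mASO STAT3, against 50.8 ± 12.1 CPM in mASO Scrbl libraries (3.11 ± 0.27, adjusted p = 1.29e-06). Vegfa, the endothelial growth factor, rose by 1.34 ± 0.20 and 1.40 ± 0.20 (adjusted p = 1.16e-04 and 8.43e-05). Fgf21, a hormone secreted by liver under nutrient stress, was lower in siSTAT3 (-2.71 ± 0.64, adjusted p = 0.00354) and was not called in mASO STAT3 (-1.12 ± 0.60, adjusted p = 0.149), though under library totals it was called lower there (-1.73, adjusted p = 0.0209). Chac1, which degrades glutathione, was at 0.14 ± 0.59 in siSTAT3 (adjusted p = 0.870) and at -2.20 ± 0.63 in mASO STAT3 (adjusted p = 0.0130). Without mASO Scrbl library 3 the Chac1 call was lost (-1.69, adjusted p = 0.0552), and under library totals it was -2.81.

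The cytosolic aminoacyl-tRNA synthetases, which charge tRNAs, moved in one direction where they moved. Of 20 measured, 8 were lower in siSTAT3 and 12 in mASO STAT3 livers and none was higher, with medians of -0.39 and -0.61. The share of all genes called lower was 23.4% in siSTAT3 and 22.5% in mASO STAT3, and called higher 22.4% and 21.3%. Nars, the asparagine enzyme, averaged 93.9 ± 12.4 CPM in siSTAT3 and 191 ± 28.0 CPM in siCntrl libraries (-1.02 ± 0.15, adjusted p = 1.13e-04), and changed by -1.08 ± 0.15 in mASO STAT3 (adjusted p = 7.63e-05). Gars, for glycine, changed by -0.70 ± 0.12 and -0.84 ± 0.12 (adjusted p = 3.37e-04 and 7.86e-05). Rars, for arginine, changed by -0.94 ± 0.15 and -0.96 ± 0.15 (adjusted p = 2.14e-04 and 1.82e-04). Under library totals 19 of the 20 were lower in each comparison.

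Upstream of ATF4, the kinases and regulators of the integrated stress response split between higher, lower and not called. Of 15 measured, 2 were higher and 3 lower in siSTAT3, where 45.7% of all genes tested were called, and 3 were higher and 5 lower in mASO STAT3, where 43.8% were. The 4 kinases differed among themselves. Eif2ak1, the heme-regulated kinase HRI, rose by 0.74 ± 0.12 and 0.43 ± 0.12 (adjusted p = 2.29e-04 and 0.00927). Library totals ended both calls, with values of 0.25 (adjusted p = 0.112) and -0.15 (adjusted p = 0.333), and the second call was also lost without mASO STAT3 library 3 (0.34, adjusted p = 0.0550). Eif2ak2, the kinase PKR that senses double-stranded RNA, fell, at -0.91 ± 0.19 and -1.10 ± 0.19 (adjusted p = 0.00150 and 3.87e-04). Eif2ak3, the endoplasmic reticulum (ER) stress kinase PERK, changed by -0.36 ± 0.22 and -0.45 ± 0.22 (adjusted p = 0.195 and 0.112). Eif2ak4, the amino acid sensor GCN2, changed by -0.16 ± 0.15 and -0.25 ± 0.15 (adjusted p = 0.424 and 0.214). Library totals turned Eif2ak3 and Eif2ak4 into calls, lower in each comparison, and Eif2ak3 was also called in mASO STAT3 without mASO Scrbl library 1. Eif2s1, which encodes eIF2α, fell, at -0.68 ± 0.16 and -0.73 ± 0.16 (adjusted p = 0.00402 and 0.00274). Ppp1r15b, a subunit of the phosphatase that reverses its phosphorylation, rose by 0.94 ± 0.14 and 1.14 ± 0.14 (adjusted p = 1.53e-04 and 3.22e-05). Over the whole list, 1 gene was higher in each comparison under library totals, and 10 were lower in siSTAT3 and 11 in mASO STAT3. Phosphorylation itself was not measured.

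Genes of the other ER stress branches, ATF6 and IRE1, were lower more than higher. Of 14, 9 were lower and 1 higher in siSTAT3 (median -0.89), and 5 lower and 1 higher in mASO STAT3 (median -0.52). Among all genes, 23.4% were lower and 22.4% higher in siSTAT3, and 22.5% and 21.3% in mASO STAT3. The count of lower genes in mASO STAT3 was 3 without mASO STAT3 library 1 or 3 or without mASO Scrbl library 1 or 2, 8 without mASO STAT3 library 2, and 13 under library totals. The 1 higher gene was Edem1. It averaged 154 ± 22.1 CPM in siSTAT3 and 113 ± 22.7 CPM in siCntrl libraries, and 181 ± 10.4 CPM in mASO STAT3, against 105 ± 15.3 CPM in mASO Scrbl libraries. In siSTAT3 the count of 1 higher gene fell to 0 in 10 of the 20 alternatives, and the call of Edem1 was lost in 7 of the fits that left out 1 library. In mASO STAT3 the count of 1 higher gene held in 19 of the 20 alternatives. The ER chaperones Sdf2l1 (-1.69 ± 0.30 and -1.28 ± 0.30, adjusted p = 6.01e-04 and 0.00373) and Dnajb11 (-0.94 ± 0.16 and -0.57 ± 0.15, adjusted p = 2.83e-04 and 0.00881) fell in both. Pdia4, which forms disulfide bonds, did so too (-1.21 ± 0.18 and -0.73 ± 0.18, adjusted p = 1.31e-04 and 0.00493). Hspa5, the main ER chaperone BiP, averaged 685 ± 181 CPM in siSTAT3 and 1485 ± 284 CPM in siCntrl libraries (-1.12 ± 0.24, adjusted p = 0.00216). It averaged 983 ± 271 CPM in mASO STAT3, against 1478 ± 317 CPM in mASO Scrbl libraries and was not called (-0.59 ± 0.24, adjusted p = 0.0639). That call depended on the settings: Hspa5 was called lower in mASO STAT3 under library totals (-1.15, adjusted p = 0.00159) and with DESeq2 (-0.57, adjusted p = 0.0454). It was also called lower there without siSTAT3 library 1 (-0.59, adjusted p = 0.0499), mASO STAT3 library 2 (-0.83, adjusted p = 0.0201) or mASO Scrbl library 3 (-0.73, adjusted p = 0.0408).

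**Figure D4:**
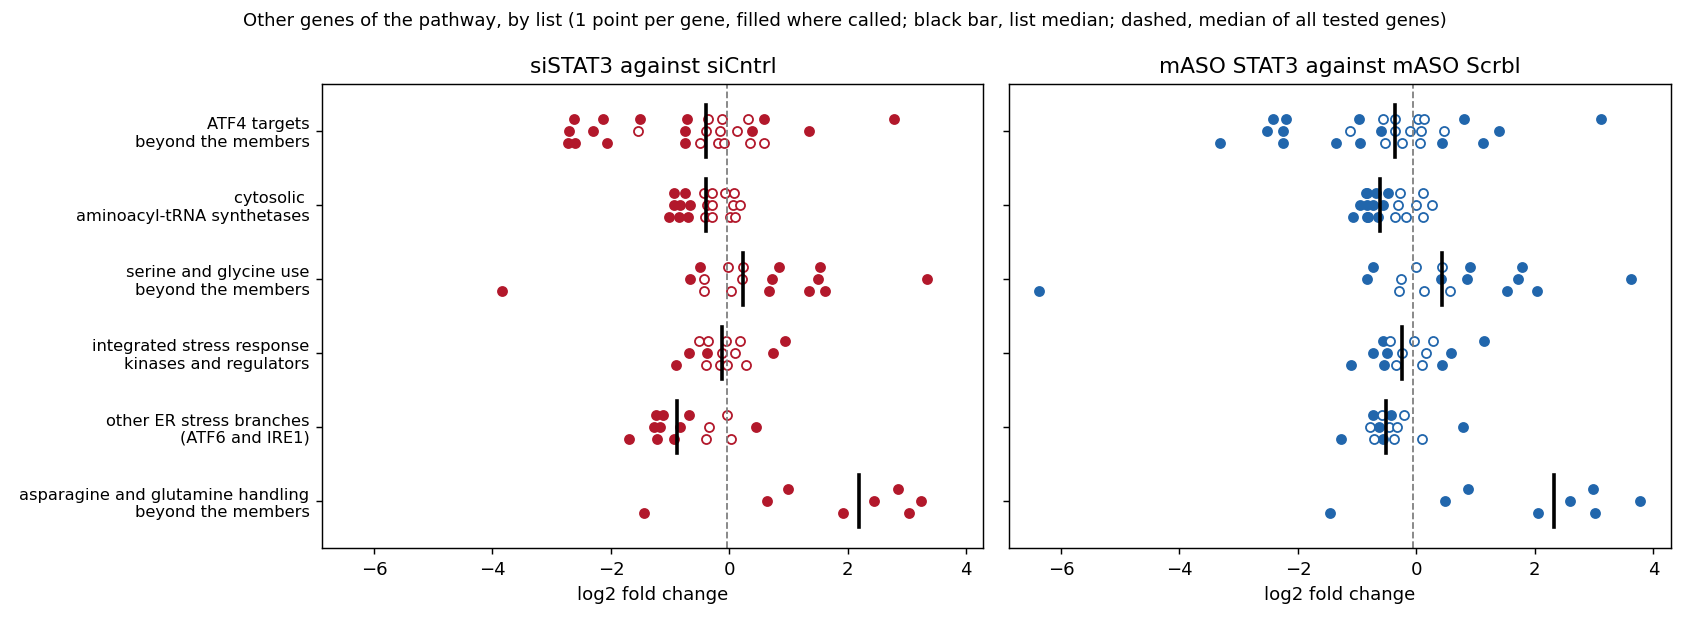
Log2 fold change (horizontal axis) of every measured gene of 6 lists in siSTAT3 against siCntrl (left) and mASO STAT3 against mASO Scrbl (right), 1 point per gene, filled where called, with a bar at the list median and a dashed line at the median of all genes. Asparagine and glutamine handling lies to the right (medians 2.18 and 2.32), and no synthetase is called higher.

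Cell type markers also differed between the groups, though not every list in the same direction. For scale, 22.4% of all genes were higher and 23.4% lower in siSTAT3, and 21.3% and 22.5% in mASO STAT3. Hepatocyte markers were present in every library, and 6 of 10 were higher in siSTAT3 and 7 in mASO STAT3, with none lower, while under library totals 3 were higher in each and 2 and 1 were lower. Their summed level was 153458 to 163910 CPM in siSTAT3 and 58518 to 98792 CPM in siCntrl libraries, and 133216 to 180302 CPM in mASO STAT3, against 63379 to 93443 CPM in mASO Scrbl libraries. The list was uneven. Alb averaged 95245 ± 9629 CPM in siSTAT3 and 51591 ± 15599 CPM in siCntrl libraries, and Cyp2e1 9380 ± 607 and 86.2 ± 8.90 CPM. Apob (3525 ± 109 and 3453 ± 1169 CPM) and Serpina1a (782 ± 111 and 807 ± 140 CPM) were close there. Fgb averaged lower in both comparisons (4342 ± 194 and 5485 ± 1644 CPM in the first), while Apob and Serpina1a averaged higher in mASO STAT3. Stellate cell and myofibroblast markers were lower for 9 of 10 in siSTAT3 (summed 162 to 223 CPM, against 1219 to 1634 CPM in siCntrl). In mASO STAT3, 8 were lower and 1 higher (205 to 269 CPM, against 836 to 1966 CPM in mASO Scrbl). Cholangiocyte markers were lower for 5 of 6 in siSTAT3 (331 to 426 CPM, against 2726 to 3744 CPM in siCntrl) and 4 of 6 in mASO STAT3 (356 to 427 CPM, against 4317 to 5052 CPM in mASO Scrbl). Krt8 and Spp1, which other cell types also express, carried that sum. Without them the other 4 markers (Krt7, Krt19, Epcam and Sox9) summed to 7.96 to 12.6 CPM in siSTAT3 and 22.7 to 38.3 CPM in siCntrl libraries. They summed to 10.7 to 14.2 CPM in mASO STAT3, against 20.0 to 29.3 CPM in mASO Scrbl libraries. Krt19 was not called in either comparison (-1.11 and -0.13, adjusted p = 0.0541 and 0.834), and Krt7 was not called in mASO STAT3 (-0.54, adjusted p = 0.285).

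Of the 9 macrophage markers in the table, 5 were lower and none higher in siSTAT3 (475 to 637 CPM, against 582 to 1159 CPM in siCntrl). In mASO STAT3, 4 were lower and 1 higher (525 to 602 CPM, against 612 to 880 CPM in mASO Scrbl). The list was split, with medians of -0.73 and 0.07: Cd68, Itgam, Cd14 and Marco averaged lower in both comparisons and Clec4f averaged higher. Markers of dividing cells were lower for 3 of 6 in each comparison (10.6 to 21.1 CPM in siSTAT3, 31.3 to 89.4 CPM in siCntrl, 8.21 to 22.1 CPM in mASO STAT3, with 51.4 to 122 CPM in mASO Scrbl). Sinusoidal endothelial markers were lower for 4 of 6 in siSTAT3 (70.5 to 118 CPM, against 112 to 134 CPM in siCntrl) and 3 of 6 in mASO STAT3 (75.5 to 131 CPM, against 115 to 132 CPM in mASO Scrbl). Of 7 lymphocyte markers, 1 was higher and 1 lower in siSTAT3 (3.99 to 7.49 CPM, against 2.96 to 5.64 CPM in siCntrl), and 2 were higher in mASO STAT3 (5.89 to 8.22 CPM, against 3.04 to 4.14 CPM in mASO Scrbl). Leaving out single libraries brought the count of lower endothelial markers in mASO STAT3 to 1 (without mASO STAT3 library 1 or 3 or mASO Scrbl library 1 or 3) and the counts of 1 higher macrophage or lymphocyte marker to 0. No marker had 0 counts in every library of a group. The part of these shifts in the results on serine, asparagine and stress genes was not tested.

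The test of the difference between the comparisons called none of the 10 genes, beside 0.00636% of all genes, and none was called by DESeq2 or by limma voom. At an unadjusted p under 0.05 there was 1 gene, Trib3, whose change was lower by 1.35 ± 0.59 in mASO STAT3 (95% interval of the difference -2.63 to -0.06, adjusted p = 0.674). The widest interval was that of Phgdh (difference 1.55, interval -0.36 to 3.47, adjusted p = 0.731), and that of Psat1 was -1.10 to 0.31. Atf4 was called in mASO STAT3 alone, and its difference of 0.48 ± 0.23 had an adjusted p of 0.677. For Chac1 and Aldh1l2 the differences were -2.34 ± 0.86 and -2.53 ± 0.76 (adjusted p = 0.643 and 0.614). A difference that misses the threshold does not show that the loads act alike.

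Between the controls, mASO Scrbl against siCntrl, none of the 10 genes was called (0.0127% of all genes), nor by DESeq2 or limma voom. At an unadjusted p under 0.05 there was 1, Atf5, at -0.50 ± 0.23 (adjusted p = 0.634). Between the STAT3 loads, mASO STAT3 against siSTAT3, none of the 10 genes and none of all genes was called by edgeR, and DESeq2 called 78 of all genes but none of the 10, as did limma voom for the 10. At an unadjusted p under 0.05 there was 1, Trib3, at -1.09 ± 0.42 (adjusted p = 0.733). These libraries are the same ones as in the comparisons above, so the values restate the levels already given.

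For each gene the most similar profile over the 12 libraries was found among 12412 other genes of at least 1 CPM on average, by the root mean square (RMS) difference of log2(CPM + 0.5) after centring each gene. Most of the likeness rests on the gap between STAT3-labelled and control libraries, which many genes share. The nearest to Psat1 was Acta2, smooth muscle actin and one of the myofibroblast markers, at an RMS of 0.39, where the median gene stood at 3.15. Acta2 averaged 1.09 ± 0.06 CPM in siSTAT3 and 115 ± 29.9 CPM in siCntrl libraries, and 1.38 ± 0.40 CPM in mASO STAT3, against 120.4 ± 25.0 CPM in mASO Scrbl libraries. The nearest to Phgdh was Timp1, another of those markers, at 0.22 (median 1.74). The added 0.5 CPM is above the level of Phgdh in STAT3-labelled libraries and flattens its fall in this measure. The fitted changes were less alike, at -4.68 and -3.41 for Timp1, against -6.82 and -5.26 for Phgdh. Timp1 averaged 0.791 ± 0.26 CPM in siSTAT3 and 20.6 ± 6.43 CPM in siCntrl libraries.

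The nearest to Psph was Sept11, a septin, at 0.10, and the nearest to Shmt2 was Hsd17b10, a mitochondrial dehydrogenase, at 0.11. Hsd17b10 averaged 225 ± 19.2 CPM in siSTAT3 and 71.3 ± 4.82 CPM in siCntrl libraries, and 208 ± 4.74 CPM in mASO STAT3, against 71.0 ± 4.10 CPM in mASO Scrbl libraries. Asns was nearest to Gla, a lysosomal galactosidase, at 0.18, and Mthfd2 to Pdlim7, a cytoskeletal adaptor, at 0.31. These too had smaller fitted changes: Gla -2.61 and -2.24 (Asns -4.34 and -3.91), and Pdlim7 -2.65 and -2.53 (Mthfd2 -3.76 and -3.81). Atf4 was nearest to Rfxap at 0.12, Atf5 to Rom1 at 0.22, Ddit3 to Srsf7 at 0.20 and Trib3 to Tox at 0.30, where the median gene stood at 0.42 to 0.72.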

How the data were processed

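The deposited table holds raw counts by gene symbol, as made by the authors, and per the labels' protocols RNA was extracted with TRIzol and sequenced with a stranded Illumina mRNA kit. The submitters' processing notes name TopHat and Cufflinks, with no version and no role. Genome build, annotation, counter and strand setting were not given in the sources used here. Reads of overlapping genes may thus be mixed, and promoter coordinates are RefSeq's, not those of the files. A deposited normalized table was not used.

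The counts of all 12 libraries entered 1 fit with a group term in edgeR 4.0.16 under R 4.3.3, with TMM factors and filterByExpr (minimum count 10, total 15), which kept 15720 and removed 9820 genes. The robust quasi-likelihood F test gave Benjamini-Hochberg adjusted p-values. The SE is the log2 fold change over the square root of F. The biological coefficient of variation was 0.247. Intervals are at 95%. On simulated counts the same fit called nearly all of the larger changes put in and a minority of the smaller ones, with the right sign. Those changes covered few genes, as many up as down, with the same spread for every gene. The real libraries had many more called genes and unequal scaling factors, so the simulation does not test the fit in their setting. limma 3.58.1 and DESeq2 1.42.0 served as alternatives. Levels are not compared between genes, since no transcript lengths were used.

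The members and lists were chosen with earlier results of these data known. From each list up to 4 genes with the smallest p in each comparison could be named, plus genes whose role the text needs. Not every gene of the lists is reported here. Replicate numbers are those of the labels. Library numbers (S7, S8 and so on) repeat between comparisons and not within one, and the labels do not say what they mean. Within a group, pairs of libraries differed beyond counting noise, so none was taken as a duplicate.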

Additional observations from a re-analysis of the deposited data

How the results depend on the processing

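In 20 alternatives (scaling, DESeq2, limma voom, filters, smaller fits, a replicate block and each library left out) Psat1, Phgdh, Psph, Asns, Mthfd2, Atf5 and Shmt2 kept direction and call in both comparisons. Psat1 ranged from -7.40 to -6.68 in siSTAT3 and from -7.87 to -7.22 in mASO STAT3, and Shmt2 from 1.23 to 1.77 and from 0.95 to 1.59. The count of members higher in mASO STAT3, 2, became 1 under library totals, without a filter and with the replicate block, and was 1 to 2 when a library was left out, each time through Atf4. Scaling by library totals turned Atf4 in mASO STAT3 to -0.15, Chac1 in siSTAT3 to -0.38, Eif2ak1 in mASO STAT3 to -0.15, Gldc there to -0.0020 and Stat3 in mASO STAT3 to -0.53 (adjusted p = 0.00413), and moved all genes down. When a library was left out, signs turned for uncalled genes: in siSTAT3 Atf4 ranged from -0.20 to 0.11, Chac1 from -0.26 to 0.49 and Stat3 from -0.12 to 0.082, and in mASO STAT3 Stat3 ranged from -0.042 to 0.15. The causes were not tested. The replicate block gave Atf4 in mASO STAT3 0.43 (adjusted p = 0.0615) and ended no other call of a member. The deviations of same-numbered libraries from their group means had correlations of -0.37 to 0.27. Differently numbered libraries were not compared in this way, so these values cannot decide whether the numbers mark pairs. The main fit did not take the numbers as pairs. For Phgdh, Asns and Aldh1l2, at most 10 counts per STAT3-labelled library limit how exactly the size of the fall is known.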
